A study of Sus scrofa with 8 samples.

Results

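T cells that carry both CD4 and CD8 on their surface were compared between colostrum, the first milk after birth, and blood of the same 2 sows. The comparison takes 4 of the 8 samples of the series, the colostral and the blood double positive cells of sow 1 and of sow 2, and its members were chosen by the labels alone. The other 4 samples, CD8 single positive T cells (CD3+, CD4-, CD8+) of the same sources and sows, add to the estimate of the spread and serve as the contrast population at the end. Both sows were Large White x Landrace crosses. Mononuclear cells were isolated from each fluid, stained for CD3, CD4 and CD8, and sorted as CD3+ CD4+ CD8+ cells, with no treatment named in the labels. All 8 samples share the same route to the array: 10 ng of total RNA was amplified with the Ovation PicoSL WTA System V2 and hybridised as labelled cDNA. Every colostrum sample carried Alexa Fluor 3 and every blood sample Alexa Fluor 5, so the source of the cells and the dye cannot be told apart in any value below. Each group holds 2 samples, 1 from each sow, and the p-values measure the spread between samples of 2 animals.

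In most mammals mature T cells keep either CD4 or CD8, but in the pig T cells with both are a regular part of the circulating pool. They are known as helper cells that have gained CD8, largely as the alpha chain, after they met antigen, and they are therefore counted with activated and memory cells. Colostrum carries living maternal leukocytes, T cells among them, which the suckling piglet takes up. The question set by the series is how such cells differ between the mammary secretion and the blood of the same mother.

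Levels are quantile normalized log2 intensities, with a floor at 5.34 that stands for the signal of negative-control spots. The detection threshold of a sample was the 95th percentile of its negative controls, 6.78 to 7.01 in the 4 double positive channels, and a probe over it is called above background. Differences are colostrum minus blood on the log2 scale with the standard error (SE) of a limma fit over all 3773 genes tested, n = 2 per group, and 1 probe, the brightest, stands for each gene. Before normalization the colostrum channels had median intensities of 121 and 127 and negative-control medians of 75 and 81, against 30 and 29 and 8 and 5 in the blood channels. The share of probes above background was 32.8% and 31.1% in colostrum and 36.1% and 30.1% in blood. The number of arrays limits the precision.

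As a check of the labels, the genes that defined the sort came first. CD3E, a signalling chain of the T cell receptor complex, was at 11.92 and 11.34 in colostrum (sow 1, sow 2) and at 12.25 and 11.77 in blood. CD3D, another chain of that complex, was at 11.96 and 11.42 in colostrum and at 11.95 and 11.69 in blood, so both chains were bright in all 4 samples and their groups overlapped. CD4 was at 7.13 and 7.0 in colostrum, just above the detection threshold, and at 9.72 and 8.41 in blood. The lower CD4 signal in colostrum was seen in both sows, with a difference of -2.002 ± 0.65 (SE) and an adjusted p of 0.428 in limma. Another CD4 probe differed by -1.37, with 1 of 2 colostrum arrays above background. CD8A, the alpha chain of CD8, was at 7.60 and 7.51 in colostrum and 8.04 and 7.21 in blood, and the sign of its small difference turned from -0.07 to 0.57 under cyclic loess. The other CD8A probe differed by 2.05, with 1 colostrum array above background and both blood values at the floor. CD8B, the beta chain, was not well above background in any of the 4 samples. The tested probes of CD3E, CD3D, CD4 and CD8A were thus above background in every double positive sample, with CD4 close to threshold in colostrum. The other CD4 and CD8A probes were not above background in every sample.

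Markers of other cells that a sorted fraction of milk or blood could hold were mostly below threshold. Of 16 mammary epithelial markers on the array, MUC1 was above background on both colostrum arrays and the milk protein gene LALBA on both blood arrays, while the casein gene CSN1S1, KRT5, KRT18 and LTF were above background in none of the 4 samples. The summed level of that list lay at 10.57 and 10.46 in colostrum and 10.82 and 10.20 in blood. Of 14 monocyte and macrophage markers, MRC1 alone was above background on both colostrum arrays and FCGR2B alone on both blood arrays, with LYZ and SIRPA at background in all 4 samples. Their sum was 10.48 and 9.96 in colostrum and 10.23 and 10.25 in blood. None of 4 B cell markers and none of 3 dendritic cell markers was above background on both arrays of either source. The summed B cell level was 8.32 and 9.92 in colostrum and 8.33 and 7.96 in blood. S100A8 was the 1 neutrophil marker of 7 above background on both blood arrays, and the neutrophil sum was 9.41 and 9.11 in colostrum and 8.64 and 10.95 in blood. Among 8 NK markers, KLRK1 was above background in all 4 samples, and among 7 red cell and platelet markers GP9 was, together with ITGA2B in colostrum and GP1BB in blood. The summed NK level was 10.22 and 9.84 in colostrum and 8.96 and 9.69 in blood. KLRK1 was higher in colostrum by 1.14, and by 1.19 with another probe. The red cell and platelet sum was 9.67 and 9.65 in colostrum and 10.49 and 10.12 in blood. Neither of these sums overlapped between the sources. The part of these cells in the differences below was not tested. As the samples are bulk RNA, fewer cells of a kind and less RNA per cell cannot be told apart.

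No gene passed limma's test after Benjamini-Hochberg adjustment over the 3773 genes, in either direction (0% called higher and 0% called lower). The smallest adjusted p was 0.337. At an unadjusted p under 0.05, 111 genes (2.94%) were higher and 216 (5.72%) lower in colostrum, 327 in all. By direction alone, 835 genes (22.1%) were higher and 1206 (32%) lower in colostrum in both sows, and both colostrum values lay above both blood values in 545 (14.4%) and below them in 874 (23.2%). By size, 98 genes (2.6%) were at least 2-fold higher in colostrum in both sows and 185 (4.9%) at least 2-fold lower in both, while 85 (2.25%) differed 2-fold in opposite directions in the sows. The balance of these counts depended on the scaling. It was 264 higher and 726 lower when each channel was scaled to its 75th percentile, a setting in which limma called 8 genes higher and 251 lower, and 374 higher and 92 lower when the median of the negative controls was subtracted before that scaling. The median difference of the 1258 genes above background in all 4 double positive samples was -0.08 with quantile normalization, -1.34 with 75th percentile scaling and 0.18 with the controls subtracted first, and that of all genes tested moved from -0.09 to 0.42 in the last case. A difference of a bright gene under 75th percentile scaling is thus to be read against -1.34.

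Variance between samples was not the same at all brightness levels. The median residual SD was 0.681 in the dimmest sixth of the genes, 0.389 in the brightest. An alternative limma fit that lets the prior variance follow the level (eBayes with trend and robust settings) called 16 genes higher (0.424%) and 15 lower (0.398%) at an adjusted p under 0.05. Of these 31 genes, 26 were above background in all 4 double positive samples. They are named below with the adjusted p of that fit, called the trend fit, beside the values; the plain fit above called none of them.

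**Figure D1:**
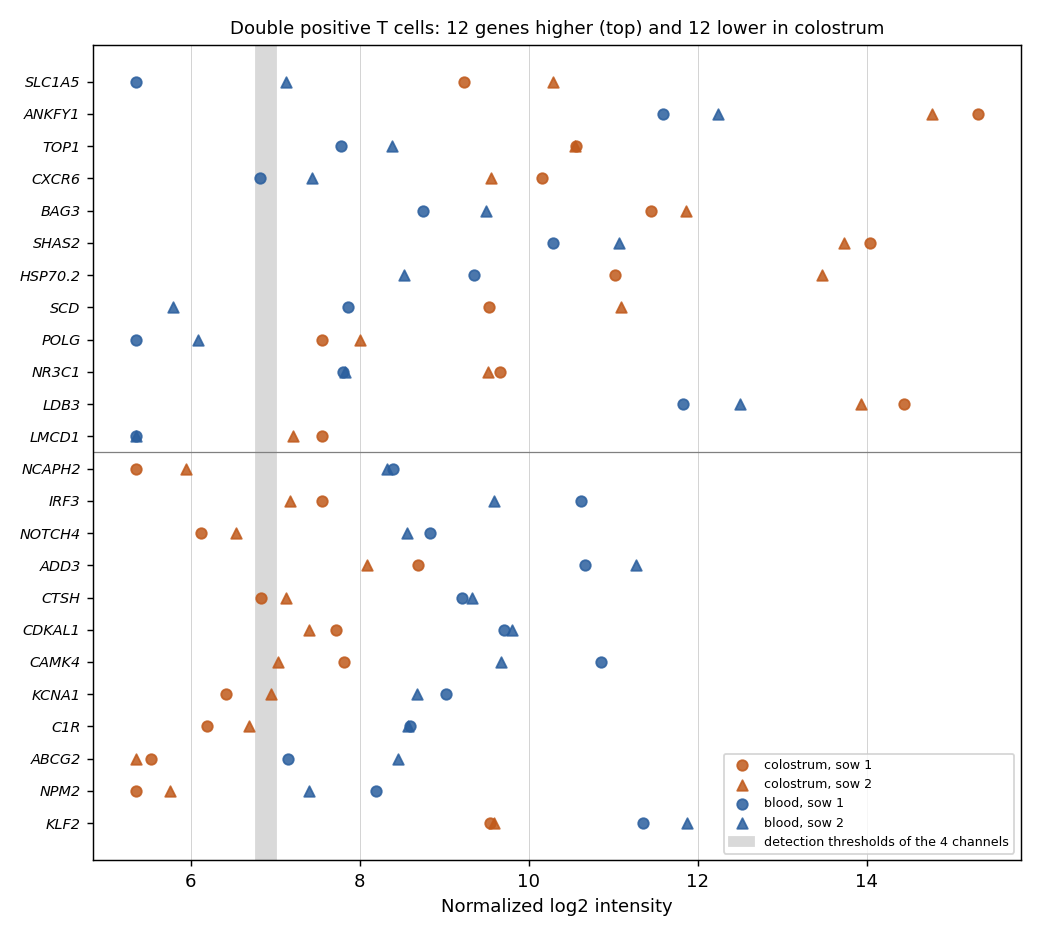
Normalized log2 intensity (x axis) of the 12 genes higher (top) and the 12 genes lower in colostrum with the largest moderated t among those of 1 sign in both sows, 1 point for each sample; orange is colostrum, blue is blood, circles are sow 1 and triangles sow 2. The grey band spans the detection thresholds, 6.78 to 7.01; for each of these genes the 2 colostrum points lie on 1 side of the 2 blood points, as the choice of the genes favours.

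The gene with the largest difference of all was SLC1A5, the transporter that brings glutamine and other neutral amino acids into the cell. Colostrum cells had 9.23 and 10.28, and blood cells 5.34, the floor, and 7.13, with 1 blood array above background. Both colostrum samples lay above both blood samples, by 3.52 ± 0.66 (plain fit adjusted p = 0.337, trend fit 0.00771). The other SLC1A5 probes differed by 3.51 and 0.87. SLC3A2, the heavy chain of a family of amino acid exchangers, was at 8.66 and 9.86 in colostrum and 7.33 and 7.84 in blood, again without overlap (1.67 ± 0.56, plain adjusted p = 0.441).

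SLC1A5 and SLC3A2 stood in a list of amino acid transport and integrated stress response genes, the pathway by which cells short of amino acids or loaded with unfolded protein switch on transporters and tRNA synthetases through the transcription factor ATF4. Of 11 genes tested, 5 were at least 2-fold higher in colostrum in both sows and 0 at least 2-fold lower, against the 2.6% and 4.9% of all genes, and their median difference was 0.66. This list and those below were chosen with earlier results of these data known. Their counts beside the shares of all genes are therefore a description and not a test. ATF4 itself was at 11.26 and 12.27 in colostrum and 9.94 and 10.35 in blood, a difference of 1.63 ± 0.57 that was -0.18 under 75th percentile scaling. DDIT3 (CHOP), a stress transcription factor downstream of ATF4, was at 9.49 and 10.96 in colostrum and 8.49 and 8.97 in blood (1.50 ± 0.62). SARS, the seryl-tRNA synthetase, was at 8.52 and 9.53 in colostrum and 7.03 and 8.07 in blood (1.47 ± 0.65). In each of these 3 genes the colostrum samples were above the blood samples, and the plain adjusted p was between 0.454 and 0.574. The list median stayed above 0 under all 15 alternatives that can move it, from 0.49 to 1.57.

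Heat shock chaperones, which hold or refold unfolded proteins, were the list with the highest median of the 30 T cell and pathway lists, 0.74 over 14 genes (0.78 in sow 1 and 0.90 in sow 2, against -0.08 and -0.07 for all genes). Of the 14, 10 were higher in both sows and 6 at least 2-fold, 1 was lower in both (22.1%, 2.6% and 32% of all genes, in that order). HSP70.2, an inducible HSP70, was at 11.02 and 13.47 in colostrum and 9.35 and 8.53 in blood. Its difference was 3.31 ± 0.76 and unequal in the sows, 1.67 and 4.95 (trend fit adjusted p = 0.0193). BAG3, an HSP70 partner that directs clients to autophagy, was at 11.44 and 11.86 in colostrum and 8.75 and 9.50 in blood, a difference of 2.53 ± 0.54 that was alike in the sows for this probe (2.69 and 2.36; trend fit 0.00789). Its 4 other probes had smaller mean differences, 0.38 to 1.61, and were not alike in the sows: 2 of them were lower in colostrum in sow 1 (9.81 against 11.01 and 7.75 against 8.08), and the median over the 5 probes was 0.35 in sow 1 and 2.27 in sow 2. AHSA1, an activator of HSP90, was at 10.09 and 11.50 in colostrum and 9.05 and 8.97 in blood (1.78 ± 0.58). DNAJB1, an HSP40 that feeds clients to HSP70, was at 11.49 and 11.91 against 9.88 and 10.23 (1.65 ± 0.48, trend fit 0.0321; -0.17 under 75th percentile scaling). HSPH1, an HSP110 exchange factor, was at 9.84 and 11.44 against 8.74 and 9.55 (1.50 ± 0.67; -0.06 under that scaling). The list median was -0.24 under 75th percentile scaling, where bright genes as a whole stood at -1.34, and above 0 under the other 14 alternatives that can move it. HSP70.2 belongs to a family of near-identical genes whose transcripts can share a probe.

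Genes of fatty acid and sterol synthesis had a median of 0.53 over 20 genes, with 10 higher and 3 lower in both sows, and 3 at least 2-fold higher in both. Of all genes, 22.1% were higher and 32% lower in both sows, and 2.6% at least 2-fold higher in both. SCD, which puts the double bond into saturated fatty acids, was at 9.53 and 11.09 in colostrum and 7.86 and 5.78 in blood. As for HSP70.2, the gap was wider in sow 2 (5.30) than in sow 1 (1.67), and the mean difference was 3.49 ± 0.85 (plain adjusted p = 0.373, trend fit 0.0321). FASN, the fatty acid synthase, was at 8.94 and 10.84 against 7.21 and 8.43 (2.07 ± 0.77). Its other probes, above background on at most 1 array, differed by 0.57 and -0.65. CYP51, a demethylase of cholesterol synthesis, was at 8.58 and 10.22 against 7.32 and 8.31 (1.58 ± 0.66). SCAP, the escort protein of the SREBP factors that drive these genes, went the other way, at 5.55 and 7.15 in colostrum, with 1 array above background, and 9.30 and 8.96 in blood (-2.78 ± 0.82, plain adjusted p = 0.391). The list median was -0.12 under 75th percentile scaling and above 0 otherwise.

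**Figure D2:**
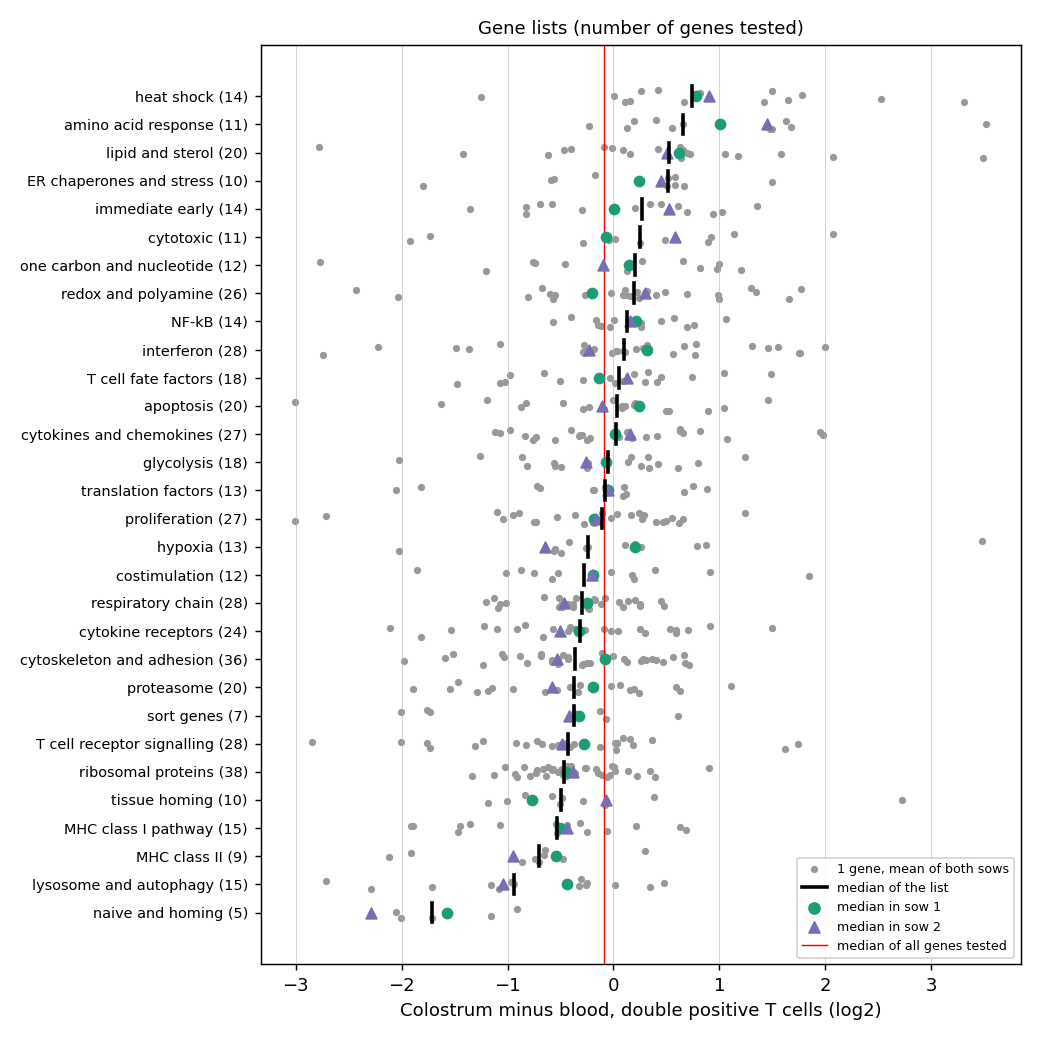
Colostrum minus blood difference (log2, x axis) of every gene tested in 30 gene lists (grey points), with the list median (black bar) and the medians in sow 1 (green circle) and sow 2 (violet triangle); the red line is the median of all genes tested, -0.09. Heat shock (0.74) and amino acid response (0.66) lie at the high end and naive and homing genes (-1.71) at the low end, with single genes spread widely in nearly every list.

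Among surface receptors, the chemokine receptor CXCR6, which binds CXCL16 and marks T cells that settle in tissues, was higher in colostrum. It was at 10.16 and 9.55 in colostrum and 6.82 and 7.44 in blood, so the groups were well apart (2.73 ± 0.58; plain adjusted p = 0.337, trend fit 0.0149). Of the 10 tissue homing genes tested, CXCR6 was the 1 gene higher in both sows and 5 were lower in both (22.1% and 32% of all genes were), with a median of -0.50. CTLA4, an inhibitory receptor of activated and regulatory T cells, was at 7.74 and 8.31 in colostrum and not well above background in blood (6.31 and 6.06), at least 2.20-fold higher in colostrum (plain adjusted p = 0.493). NR3C1, the glucocorticoid receptor, was at 9.66 and 9.52 against 7.80 and 7.83, and its 1.78 ± 0.46 had an adjusted p of 0.373 in the plain fit.

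The receptors and factors of naive and recirculating T cells were lower in colostrum. All 5 genes tested were lower in both sows, with a median of -1.71 (-1.57 in sow 1 and -2.29 in sow 2), and for each of them both colostrum values lay below both blood values, as for 23.2% of all genes. KLF2, which keeps T cells quiescent and maintains the receptors of lymph node entry and exit, was at 9.54 and 9.59 in colostrum and 11.35 and 11.88 in blood. Its difference of -2.05 ± 0.48 had an adjusted p of 0.373 in the plain fit and 0.0149 in the trend fit, and another KLF2 probe gave -2.03. CCR7, which guides T cells into lymph nodes, was at 8.29 and 7.97 against 9.86 and 10.41 (-2.01 ± 0.50). LEF1, a transcription factor of naive cells, was at 8.68 and 8.01 against 9.48 and 10.63 (-1.71 ± 0.56), while its 2 other probes differed by -1.40 and -0.01. FOXO1, a factor upstream of KLF2 and CCR7, differed by -1.16 ± 0.53, with 0.52 and -1.38 in its other probes, and the interleukin 7 receptor chain IL7R by -0.91 ± 0.50. The list median was below 0 under all 15 alternatives that can move it, from -3.05 to -1.04.

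The plot of the differences in 1 sow against the other shows how far these groups repeat between the 2 animals. Across all 3773 genes the differences in sow 1 and sow 2 had a Pearson r of 0.229, and across the 1258 genes above background in all 4 samples 0.348. These are correlations across genes within 4 samples, and genes are not independent replicates.

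**Figure D3:**
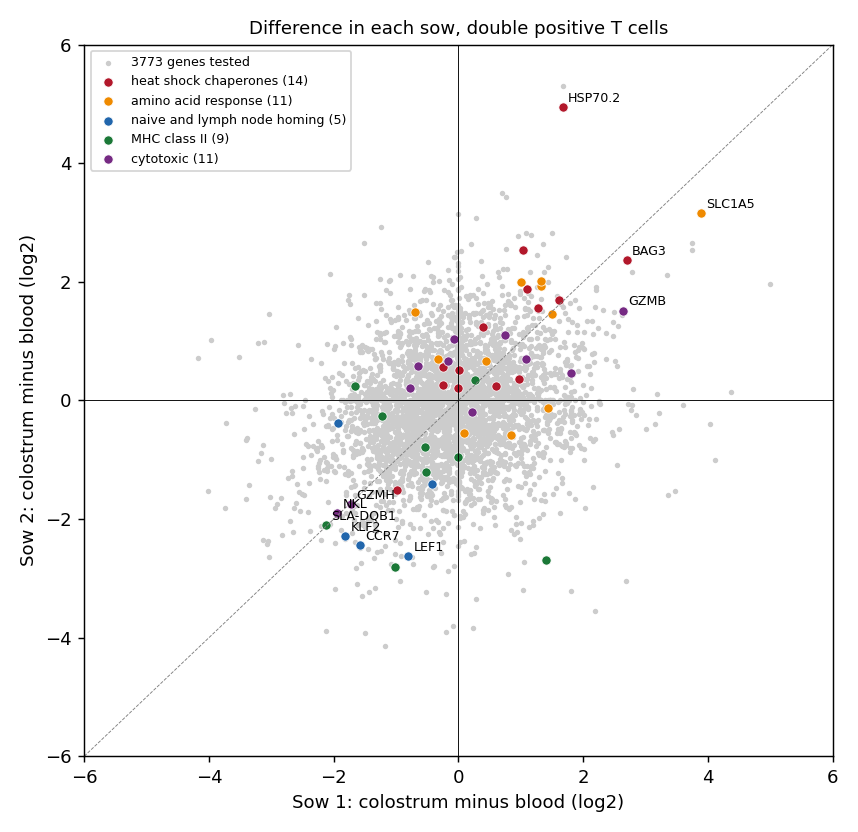
Colostrum minus blood difference (log2) in sow 1 (x axis) and sow 2 (y axis) for 3773 genes (grey) and 5 gene lists (colours); the dashed line marks equal differences. BAG3 and SLC1A5 lie near the line at the upper right, HSP70.2 lies above it (1.67 and 4.95), and the 5 naive and homing genes lie at the lower left.

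Cytotoxic genes were split: 4 of 11 were higher and 2 lower in both sows (22.1% and 32% of all genes were), with a median of 0.25 (-0.07 in sow 1 and 0.58 in sow 2). GZMH, a granule protease, was at 9.66 and 9.67 in colostrum and 11.38 and 11.42 in blood, nearly the same gap in each sow (-1.73 ± 0.54; plain adjusted p = 0.403, trend fit 0.0392), and a second GZMH probe gave -1.66. NKL, the pig NK-lysin gene for a pore-forming granule peptide, was at 9.21 and 7.86 against 11.15 and 9.77 (-1.93 ± 0.65). GZMB, the granzyme of killer cells, pointed the other way at 9.44 and 6.86 against 6.81 and 5.34 (2.07 ± 0.85, plain adjusted p = 0.533; 1.73 with another probe), with 1 of 2 arrays above background on each side.

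T cell receptor signalling turns antigen contact into calcium and kinase signals. Of 28 genes tested, 12 were lower and 4 higher in both sows (32% and 22.1% of all genes were), with a median of -0.43. CAMK4, a calcium and calmodulin dependent kinase, was at 7.81 and 7.03 in colostrum and 10.85 and 9.67 in blood, with -3.05 in sow 1 and -2.64 in sow 2 (-2.84 ± 0.62; plain adjusted p = 0.337, trend fit 0.0149). CD247, the zeta chain of the receptor, was at 9.40 and 8.49 against 10.86 and 10.54 (-1.76 ± 0.64). CD3G was at 10.54 and 8.05 against 10.74 and 11.32, so that its -1.74 ± 0.79 was made of -0.20 in sow 1 and -3.27 in sow 2. Another CD3G probe, not above background in any double positive sample, differed by 0.88. CD40LG, the ligand by which helper cells activate B cells, differed by -1.85. DGKA, a kinase that dampens the receptor's diacylglycerol signal, was higher in colostrum instead, at 12.29 and 12.02 against 10.15 and 10.69 (1.74 ± 0.51, trend fit 0.0321; -0.14 under 75th percentile scaling).

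Antigen presentation genes were lower on average. Activated T cells of the pig carry MHC class II, the molecules that show peptides to helper cells, and 5 of 9 class II genes tested were lower and 1 higher in both sows (32% and 22.1% of all genes were), with a median of -0.70. SLA-DQB1, a class II beta chain, was at 9.33 and 10.11 in colostrum and 11.46 and 12.22 in blood, a gap of equal size in the sows (-2.13 and -2.11; plain adjusted p = 0.373, trend fit 0.0149), though its 3 other probes differed by -0.17 to -0.80. SLA-DRA, the DR alpha chain, was at 11.57 and 9.20 against 12.58 and 12.01 (-1.91 ± 0.76). In the class I pathway, 10 of 15 genes were lower and 2 higher in both sows, with 5 at least 2-fold lower in both (4.9% of all genes were) and a median of -0.53. PSMB8, a catalytic subunit of the immunoproteasome that cuts peptides for class I, was at 9.81 and 7.64 against 11.05 and 10.18 (-1.89 ± 0.72). TAP1, the peptide transporter, was at 6.93 and 6.11 against 9.03 and 7.83 (-1.91 ± 0.73), with 1 of 2 colostrum arrays above background, and its other probe, near the threshold, differed by -0.03. SLA-8, a class I heavy chain of a family with near-identical members, was at 9.24 and 9.75 against 10.76 and 11.12 (-1.44 ± 0.52). The medians of both lists were below 0 under all 15 alternatives that can move them.

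Lysosomal and autophagy genes had a median of -0.94 over 15 genes, 9 lower and 1 higher in both sows (32% and 22.1% of all genes were). CTSH, the lysosomal protease cathepsin H, was at 6.83 and 7.13 in colostrum, with 1 array above background, and 9.21 and 9.32 in blood (-2.29 ± 0.48; plain adjusted p = 0.337, trend fit 0.0444). Another CTSH probe, near the threshold in all samples, differed by -0.22. M6PR, a receptor that sends enzymes to the lysosome, was at 9.70 and 6.73 against 11.21 and 10.66, with -1.51 in sow 1 and -3.93 in sow 2. Smaller values came from the 4 remaining M6PR probes, -1.75, -0.44, 0.12 and -0.17.

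Ribosomal protein genes were a little lower, with a narrow spread: 28 of 38 were lower and 4 higher in both sows (32% and 22.1% of all genes were), 24 had both colostrum values below both blood values (23.2% of all genes did), and the median was -0.46. RPL35, a protein of the large subunit, was at 14.66 and 14.63 in colostrum and at 15.96 and 15.99 in blood, where its probe was saturated on both arrays, so blood was at least 2.52-fold higher (trend fit adjusted p = 0.00771). RPS12, a protein of the small subunit, was likewise saturated in blood and at least 1.88-fold higher there (15.19 and 14.97 against 15.99 and 15.996; trend fit 0.0321). That bound is the tested probe's alone: the 5 other RPS12 probes, all bright, differed by -0.67, 0.06, -0.99, -0.11 and -0.57. Respiratory chain genes had a median of -0.30, with 14 of 28 lower and 0 higher in both sows (32% and 22.1% of all genes were) and none at least 2-fold. Proteasome genes had a median of -0.37 with 4 of 20 at least 2-fold lower in both sows, and cytoskeleton and adhesion genes -0.36 with 4 of 36 (4.9% of all genes were). Each of these 4 medians was below 0 under all 15 alternatives that can move them.

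Redox and polyamine genes were split, with 12 of 26 higher and 6 lower in both sows (22.1% and 32% of all genes were) and a median of 0.19. GPX1, a glutathione peroxidase that removes hydrogen peroxide, was at 10.08 and 9.83 in colostrum and 11.66 and 12.31 in blood (-2.03 ± 0.51; plain adjusted p = 0.373, trend fit 0.0149). MGST3, a glutathione transferase of membranes, was at 7.31 and 7.68 against 9.96 and 9.89 (-2.43 ± 0.61, trend fit 0.0321), while its 3 dimmer probes differed by -0.18 to -1.17. TXNIP, which binds and blocks thioredoxin, was at 10.86 and 11.42 against 9.72 and 9.25, a difference of 1.65 ± 0.53 that became -0.04 under 75th percentile scaling. PRDX6, a peroxiredoxin, was at 11.81 and 12.39 against 10.52 and 10.997, a difference of 1.35 ± 0.48 that became -0.57 under that scaling. Of its 6 other probes, 4 were higher in colostrum by 0.34 to 1.04 and 2 lower (-0.35 and -0.30). SAT1, which acetylates polyamines for export and breakdown, was at 14.19 and 14.20 against 12.63 and 13.16 (1.30 ± 0.48, trend fit 0.0321, -0.84 under that scaling), and its 6 other probes were all higher in colostrum, the least by 0.25.

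Interferon and cytokine genes held members at both ends. IRF3, the transcription factor that starts the type I interferon response to viral nucleic acid, was at 7.55 and 7.17 in colostrum and 10.61 and 9.59 in blood (-2.74 ± 0.52; plain adjusted p = 0.337, trend fit 0.0149). Another IRF3 probe, not above background in any double positive sample, differed by -0.57. TMEM173 (STING), an adaptor upstream of IRF3, was not well above background in colostrum and at 8.98 and 7.30 in blood, at least 2.32-fold higher there. Among interferon target genes, RSAD2 was at 8.12 in both colostrum samples and below background in blood, at least 2.34-fold higher in colostrum by that probe. Another RSAD2 probe, not above background in any double positive sample, differed by -0.34. ISG15 was at 13.74 and 13.48 against 12.58 and 11.71, a difference of 1.46 ± 0.66 that was -0.58 under 75th percentile scaling. Over the whole interferon list, 8 of 28 genes were higher and 8 lower in both sows (22.1% and 32% of all genes were), and the median was 0.10. The chemokine gene CXCL10 was at 7.66 and 8.17 in colostrum and below background in blood, at least 2.03-fold higher by that probe (plain adjusted p = 0.428). Its other probe, not above background in any double positive sample, differed by -0.08. Of 24 cytokine receptor and signalling genes 10 were lower and 3 higher in both sows (32% and 22.1% of all genes were), with a median of -0.31 that was 0.089 with the controls subtracted before 75th percentile scaling. SOCS2, a brake on cytokine signalling, was at 5.78 and 7.56 in colostrum and 8.99 and 8.58 in blood (-2.11 ± 0.64), and IFNGR2, the second chain of the interferon gamma receptor, was not well above background in colostrum and at least 2.28-fold higher in blood.

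Genes outside the lists described above filled the rest of the strongest differences. Some of them stood in further lists. P4HA1 and PDK1 were in a hypoxia list (median -0.24), and PDK1 also in a glycolysis list (-0.05). BIRC5 was in lists of proliferation (-0.10) and apoptosis (0.04), and EIF4E in a list of translation factors (-0.08). The median of all genes was -0.09. Higher in colostrum were ANKFY1, an endosomal protein (15.32 and 14.77 against 11.58 and 12.23; trend fit 0.00771), SHAS2, a symbol of the array annotation with no role given here (14.03 and 13.73 against 10.29 and 11.07; 0.0149), and TOP1, a DNA topoisomerase (10.56 and 10.54 against 7.77 and 8.37; 0.0149). Not all of them were repeated by other probes. The 4 other TOP1 probes differed by 0.54, -1.17, 0.17 and -0.92. LDB3, a muscle Z-disc protein, was at 14.44 and 13.94 against 11.82 and 12.50 (2.02 ± 0.53, trend fit 0.00771, -0.10 under 75th percentile scaling), while the highest value of its 11 other probes in any of the 4 samples was 7.44. The tested probes of POLG, the mitochondrial DNA polymerase, and of LMCD1 were above background on both colostrum arrays and no blood array, at least 1.84-fold and 1.40-fold higher, but of the 3 other POLG probes, none above background on more than 1 array, 1 differed by -1.16 and the others by 0.60 and 1.47. P4HA1, a collagen prolyl hydroxylase, was at 10.34 and 8.81 in colostrum and not well above background in blood, at least 6.41-fold higher by that probe (plain adjusted p = 0.391). The 7 other P4HA1 probes ran from -0.27 to 2.44, and the 2 of them above background on a blood array differed by -0.12 and 0.06. The trend fit also called ZUFSP (1.92), MORF4L1 (1.38), BRD2 (1.39) and LOC100513868 (1.59), which fall outside the naming rule and are named after their values were seen; under 75th percentile scaling the last 3 took the opposite sign (-0.84, -0.71 and -0.32).

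Lower in colostrum were ADD3, a cap protein of the membrane skeleton (8.69 and 8.09 against 10.66 and 11.26; trend fit 0.0101), and CDKAL1, a tRNA modifying enzyme (7.72 and 7.40 against 9.70 and 9.80; 0.0321). For ADD3, 3 other probes above background in all samples gave -2.46, -2.73 and -1.69, and its 2 dimmer probes -0.24 and -0.15. NCAPH2, a subunit of condensin II, NOTCH4, a Notch receptor, KCNA1, a potassium channel, C1R, a protease of the classical complement pathway, NPM2, a histone chaperone, and ABCG2, an efflux transporter, were not well above background in colostrum, so only bounds can be given. They were at least 2.69-fold, 3.41-fold, 3.77-fold, 3.15-fold, 1.82-fold and 1.83-fold higher in blood, in that order, and the trend fit called NCAPH2 (0.0321) and NOTCH4 (0.0392). These bounds are those of the tested probes. Another NOTCH4 probe, not above background in any double positive sample, differed by -0.54. Other ABCG2 probes, each above background on 1 array, differed by -0.33, -1.22 and 0.06. BIRC5, the mitotic survival factor survivin, was at least 3.22-fold higher in blood (7.47 and 9.76; plain adjusted p = 0.403). Another BIRC5 probe, above background on 1 blood array, differed by -0.88. PDK1, a kinase that inhibits pyruvate dehydrogenase, was at 8.02 and 7.75 against 9.67 and 10.14 (-2.02 ± 0.58; -0.48 with another probe), and EIF4E, the cap binding factor of translation, at 8.07 and 8.04 against 10.59 and 9.62 (-2.05 ± 0.56). SLC25A6, a mitochondrial ADP and ATP exchanger called by the trend fit (-1.22; 0.0321), is likewise named after its value was seen.

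Genes printed with several probes allow the same transcript to be read more than once on each array. The probes share the sample, the dye and the amplified cDNA, so they bear on the probe and not on the animal. Of 2181 further probes of 880 genes above background on both arrays of a source, 1576 (72.3%) had the sign of the tested probe. For genes at least 2-fold different in both sows it was 197 of 220 probes (89.6%). A probe above background only in the brighter source entered through that source, which favours the same sign. The genes of the second share were also chosen by the size of their difference. Both shares are therefore a description. Of 253 genes with 4 or more such probes, 12 were higher and 29 lower in colostrum in every probe and both sows, a selection made after the values were seen. SCD led the higher genes with a median of 3.16 over 5 probes, followed by AHSA1 (1.87, 4 probes), CYP51 (1.44, 4 probes), the immediate early factor FOS (1.36, 4 probes), ATF4 (1.25, 6 probes) and the histone variant H2AFZ (1.11, 4 probes). Under 75th percentile scaling SCD, AHSA1 and CYP51 stayed above 0 (2.69, 0.64 and 0.81), while FOS, ATF4 and H2AFZ turned to -0.45, -0.46 and -0.30. All 6 were above 0 with the controls subtracted first.

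GPX1 led the lower genes of that selection with a median of -2.10 over 6 probes. KLHDC2 (-2.03, 5 probes), CNPY2 (-1.71, 7) and STX16 (-1.70, 4) came next. SLA-DRA had a median of -1.56 over 7 probes and SLA-DRB1, the DR beta chain, -1.55 over 4. FLNA, the actin cross-linker filamin A, had a median of -1.55 over 4 probes, and LDHB, a lactate dehydrogenase subunit, -1.45 over 12. The ribosomal protein gene RPL10A was at -1.23 over 9 probes and RPL5 at -0.87 over 18. Each of these 10 genes stayed below 0 under both 75th percentile scalings. Plain 75th percentile scaling could hardly turn them, as 7.07% of the 1258 genes above background in all 4 double positive samples were above 0 there. With the controls subtracted first, GLUD1 and LY96, also lower in every counted probe and sow, turned to 0.22 and 0.30.

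**Figure D4:**
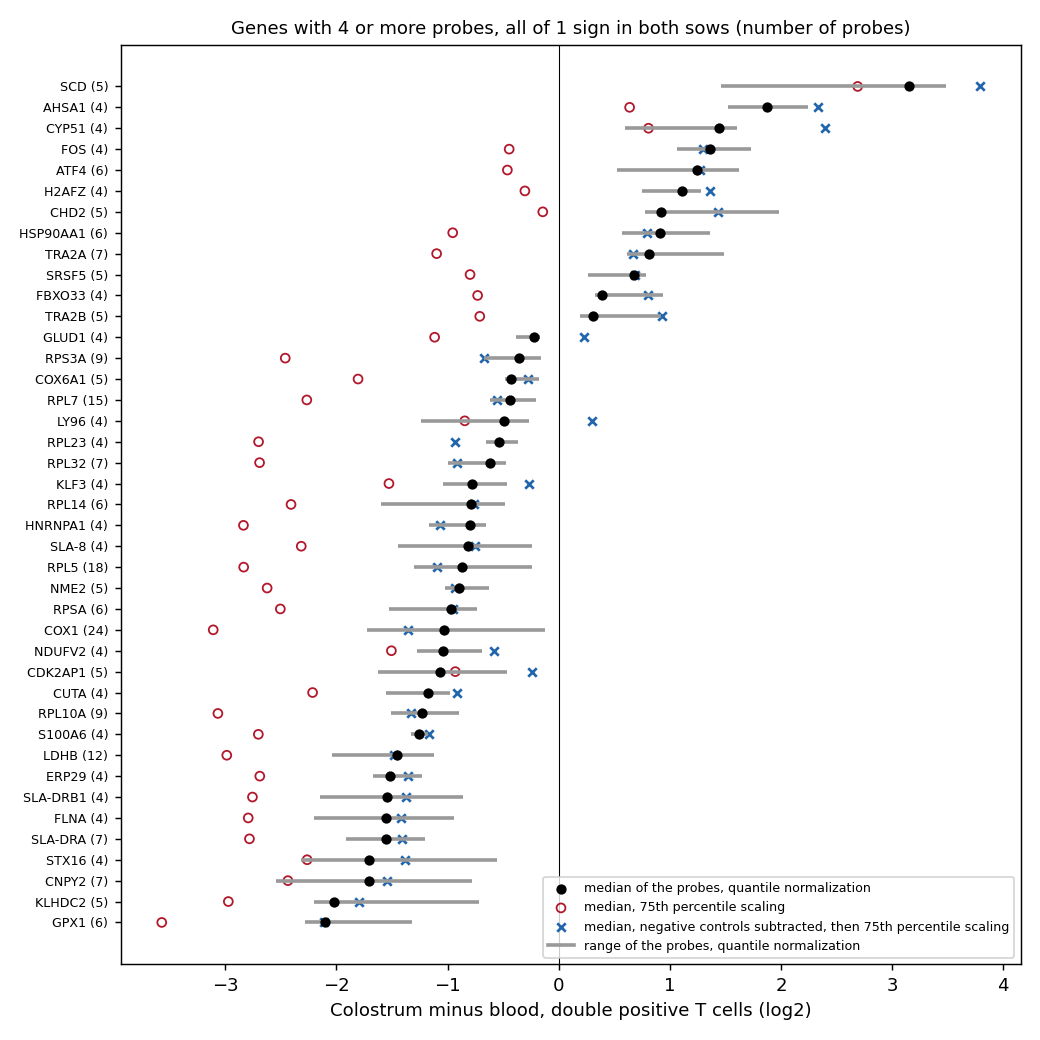
Colostrum minus blood difference (log2, x axis) of 41 genes, with the number of probes above background on both arrays of a source in brackets. Each gene had 4 or more such probes, all of 1 sign in both sows. Grey bars span the probes and black points are their medians with quantile normalization; red circles are medians with 75th percentile scaling, which lie further left and put FOS at -0.45, and blue crosses are medians with the negative controls subtracted first.

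The CD8 single positive cells of the same fluids and sows show where the double positive cells differ from another T cell population. Both comparisons carry the same dyes, so a dye effect of equal size in both cancels in their difference. No gene was called for that difference (0 of 3773 in limma, smallest adjusted p = 0.997), and 87 (2.31%) had an unadjusted p under 0.05. The trend fit called 0 genes for it as well, and of its 31 calls in double positive cells 7 were among its 15 calls in single positive cells. Across all 3773 genes the differences of the 2 populations had a Pearson r of 0.403. Across the 1258 genes above background in all 4 double positive samples it was 0.607. Both populations share the sows, the dyes and the amplification. Side by side, SLC1A5 was higher by 3.52 in double positive and 2.33 in single positive cells, SCD by 3.49 and 3.19, BAG3 by 2.53 and 2.34, and CXCR6 by 2.73 and 1.93. KLF2 differed by -2.05 and -3.05 and GPX1 by -2.03 and -1.88, so these genes had 1 direction in both populations.

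The 2.31% of genes with an unadjusted p under 0.05 for the difference between populations is a smaller share than the 0.05 that such a threshold passes with no difference at all, and the following values are a description. CAMK4 differed by -2.84 in double positive and by -0.11 in single positive cells (unadjusted p of the difference 0.0119, adjusted 0.997), with all 8 values above background. LEF1 differed by -1.71 and by -3.99 (0.0175, adjusted 0.997), with 1 of its 2 colostral single positive values above background. For KCNA1, C1R, NOTCH4, LMCD1 and CD4 no such pair of differences is given. At least 1 of the 4 groups had no array, or 1 array, above background for each of these genes. That limit was not applied to every gene. It also holds for LEF1, and for SLC1A5 and SCD above, each of which had 1 double positive blood array above background. The printed pairs of these 3 genes are thus not exact sizes of a difference.

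**Figure D5:**
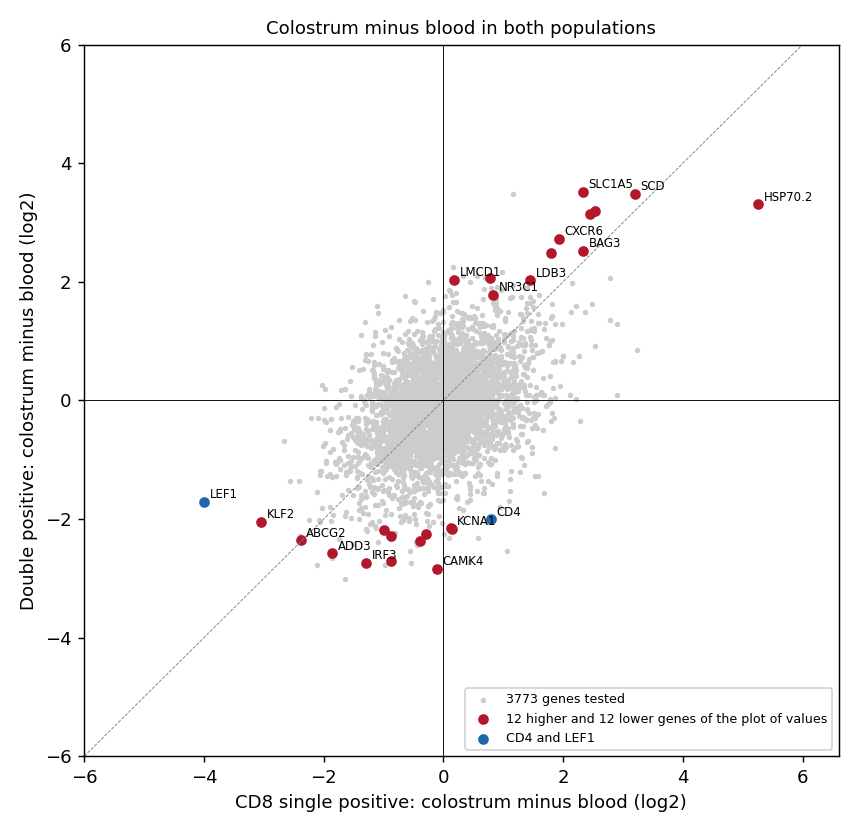
Colostrum minus blood difference (log2) in CD8 single positive cells (x axis) and double positive cells (y axis) for 3773 genes (grey), the 24 genes of the plot of values by sample (red) and CD4 and LEF1 (blue); the dashed line marks equal differences. SLC1A5, SCD and BAG3 lie near the line at the upper right, and CAMK4 (-0.11 and -2.84) lies near 0 on the x axis. Points of genes not above background in a group, such as KCNA1, LMCD1 and CD4, show measured means and not sizes of a difference.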

How the data were processed

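Per the labels' protocols, RNA of sorted cells was amplified, labelled and hybridised. The deposited file of each sample holds 1 whole-number intensity for each of 45220 spots, some below 0. A second table that the authors deposited gives log2 values for 43603 probes, close to a quantile normalization of these intensities (99.3% of 338770 values within 0.1), and was an alternative. No source used here names the scanner or background method. Control spots were left out, 50 probes printed more than once averaged, the 8 channels quantile normalized, a floor set at 40.6 intensity units (median of 153 negative-control spots) and log2 taken; 11.2% of tested values lay at the floor. The platform annotation names 1 gene for 10278 probes and leaves 33325 unnamed here; 6051 accessions matched the Sscrofa11.1 annotation, which changed 443 symbols. Probes with a mean above the 30th percentile were kept, and the brightest stood for each of 3773 genes of 4560.

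limma 3.58.1 (R 4.3.3) was fitted to 4 group means over 8 samples without a block (4 residual and 5.39 prior degrees of freedom), with Benjamini-Hochberg adjustment, and tested on simulated data. A gene below the detection threshold on both arrays of 1 source, or saturated on both (65000 or more), has a bound: "at least" compares the brighter mean with the mean of the higher of threshold and value in the dimmer group. The labels give same-numbered samples the same sow. Their deviations correlated across genes between colostrum and blood of the same population (r = 0.219 in double positive and 0.284 in single positive cells). Across populations r was -0.0207 for colostral double positive with blood single positive cells, and 0.0093 for colostral single positive with blood double positive cells. The pairing by sow thus rests on the labels, and fits with the sow as a block were alternatives. Genes were named by a rule: the 12 higher and 12 lower genes with the largest moderated t among those of 1 sign in both sows and above background in a group, up to 5 members of each gene list, and the sort genes. The members, lists and alternatives were chosen with earlier results of these data known. Lists are described by counts and medians without a set test, and no sequence is printed.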

Additional observations from a re-analysis of the deposited data

How the results depend on the processing

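No alternative normalization, filter or fit other than 3 called a gene in this comparison. Scaling to the 75th percentile called 8 genes higher and 251 lower, and put 264 and 726 at least 2-fold higher and lower in both sows. The variance trend fit called 16 and 15. A floor at the 95th percentile of the negative controls called 8 and 14 and put 54 and 103 past 2-fold, and called 11 genes for the difference between populations, where all other settings called 0. The 2-fold counts were 374 and 92 with the controls subtracted before 75th percentile scaling, 50 and 87 with normexp background correction, 55 and 115 with the mean of each gene's probes, 173 and 366 with every probe on its own, and 48 and 52 among genes above background in all 4 double positive samples, an alternative chosen after seeing the data. The cause was not tested, beyond the different number of genes or probes in the last 2. The replicate block for the sow, fixed, within pairs or random (correlation 0.239), gave 0 calls like the fit without it and changed no call.

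Under 75th percentile scaling the sign turned for ATF4 (-0.18), BRD2 (-0.71), DGKA (-0.14), DNAJB1 (-0.17), FOS (-0.60), HSPH1 (-0.061), ISG15 (-0.58), LDB3 (-0.10), LOC100513868 (-0.32), MORF4L1 (-0.84), PRDX6 (-0.57), SAT1 (-0.84) and TXNIP (-0.043). CD8A turned to 0.57 with cyclic loess, 0.79 with the controls subtracted before 75th percentile scaling and 0.99 with the mean of its probes, where CD3D turned to 0.061. CD8B lay at the floor in both sources in 3 settings.

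Leaving out 1 double positive sample gave 0 calls each time, with CD3D between -0.40 and 0.14 and CD8A between -0.49 and 0.35. At an unadjusted p under 0.05 the count went from 327 to between 202, without the blood sample of sow 1, and 305. Signal over background limits the dim genes: 760 of the 3773 were above background in none of the 4 double positive samples, and 18 of these passed 2-fold in both sows.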

Other observations

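The splicing regulators TRA2A, SRSF5 and TRA2B were among the genes read the same way by every probe. TRA2A was higher in colostrum by a median of 0.82 over 7 probes, SRSF5 by 0.68 over 5 and TRA2B by 0.31 over 5, with the same sign in both sows, but under 75th percentile scaling the medians were -1.10, -0.80 and -0.71. These genes were picked after their values were seen. COX1 is the symbol that the RefSeq annotation gives to a cytochrome c oxidase subunit encoded by the mitochondrial genome. Its 24 probes above background on both arrays of a source were all lower in colostrum. Their median was -1.03 (-0.84 in sow 1 and -1.34 in sow 2).

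Of the probes that carry no gene name here, 7605 were above background on both arrays of colostral or blood double positive cells. At least 2-fold in both sows, 426 of these (5.6%) were higher and 362 (4.76%) lower in colostrum. Among genes filtered the same way, 1 probe for each of 1866 genes, 77 were higher and 146 lower.

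The sow 1 minus sow 2 difference correlated across genes between colostrum and blood of 1 population (0.219 in double positive cells), and less between the 2 populations within colostrum (0.0807) or within blood (0.047).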
